A study of Mus musculus with 13 samples.

Results

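Expression of 37 genes of DNA replication was followed in mouse lung fibroblasts after a sham procedure, after bleomycin and after pneumonectomy. The genes were chosen by name, from origin licensing, the replication fork, nucleotide synthesis and the G1/S switch, and all 37 were found among the 43346 genes of the deposited table. The 13 libraries were sequenced in 4 groups. The sham group (n = 2), the group at day 14 after bleomycin (n = 3) and the group at day 30 after bleomycin (n = 5) came from Col1a1-GFP mice aged 8 weeks, in which the promoter of a collagen gene drives a green fluorescent protein. The group at day 14 after pneumonectomy (n = 3), the surgical removal of lung tissue, is labelled primary sorted fibroblast, with no strain or age in weeks beside the samples. The deposited table calls the groups of all 13 columns young, and the design text counts the pneumonectomy cells among the Col1a1-GFP fibroblasts too. The reporter marks cells that use a collagen promoter, which need not be fibroblasts only. No sorting gate, no sex and no type of sham procedure are stated. The pneumonectomy libraries were described with another RNA preparation than the rest, so that the preparation cannot be told apart from the surgery. No label says that the libraries of a group came from separate animals, and all p-values measure the spread between these libraries only.

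Before a cell divides, its DNA is copied once. The origin recognition complex, CDC6 and CDT1 load rings of the 6 MCM2-7 proteins onto DNA in G1 phase, and CDC45 and the GINS complex later turn each ring into the active helicase of a replication fork. Polymerase alpha with primase lays down primers, the clamp PCNA is set on DNA by the RFC loader, and FEN1 and ligase 1 join the fragments of the lagging strand. Ribonucleotide reductase and thymidylate synthesis supply the nucleotides, CAF-1 places histones on the new DNA, and UHRF1 reads its half-methylated sites. Cyclin E and the E2F factors switch many of these genes on at the passage from G1 to S phase. Fibroblasts of a resting adult lung divide little, and bleomycin, which breaks DNA, is widely used in mice to bring on lung injury with a phase of fibroblast expansion and scarring, whereas pneumonectomy is followed by growth of the remaining lung.

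Because E2F factors are known regulators of this group, the sequences around the transcription starts were searched for E2F words. RefSeq windows on GRCm38.p6, from 250 bases before to 50 bases after a start, were at hand for 31 of the 37 genes, in 36 windows. The 8-base words TTTCCCGC, TTTGGCGC, TTTCGCGC and TTTGCCGC, searched on both strands, occurred in 12 of the 36 windows (33.3%) and in 2.26% of all 32851 mouse windows of this length. The same words without their first T, 7 bases that each longer word contains, occurred in 22 of the 36 windows (61.1%) and in 9.57% of all windows. The word CCAAT was in 52.8% of the members' windows against 37.4% of all, and GGGCGG in 75.0% against 35.7%. Windows of 6 members are printed here 5′ to 3′ on the gene's strand, with the 7-base words in capitals. Mcm5 (chr8:75109259-75109558, plus strand), Mcm6 (chr1:128359656-128359955, minus strand), 1 of the windows of Uhrf1 (chr17:56303087-56303386, plus strand) and Cdt1 (chr8:122567765-122568064, plus strand) are shown as windows with such words. Ccne1 (chr7:38107441-38107740, minus strand) and E2f1 (chr2:154569377-154569676, minus strand), are shown as windows without them. Mcm2, with a log2 change of 2.28 at bleomycin day 14 beside 2.21 for Cdt1, has no such word in its window either. RefSeq starts can differ from the GENCODE gene models given below, and the printed window of E2f1 lies wholly inside its GENCODE model. A match is a description of the letters and not a binding site, and no match says nothing of the factor.
Mcm5: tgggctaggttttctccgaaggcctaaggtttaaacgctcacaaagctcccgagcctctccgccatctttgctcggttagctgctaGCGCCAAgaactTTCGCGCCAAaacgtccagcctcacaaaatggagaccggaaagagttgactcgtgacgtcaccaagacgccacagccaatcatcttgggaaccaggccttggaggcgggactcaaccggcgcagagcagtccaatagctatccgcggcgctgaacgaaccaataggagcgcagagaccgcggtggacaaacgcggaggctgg
Mcm6: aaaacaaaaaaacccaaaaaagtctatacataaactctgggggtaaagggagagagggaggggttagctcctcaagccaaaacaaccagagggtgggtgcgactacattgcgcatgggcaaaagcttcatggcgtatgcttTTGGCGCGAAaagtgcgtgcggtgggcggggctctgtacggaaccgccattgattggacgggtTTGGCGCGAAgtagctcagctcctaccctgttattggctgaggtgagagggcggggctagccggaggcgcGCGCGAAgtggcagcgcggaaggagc
Uhrf1: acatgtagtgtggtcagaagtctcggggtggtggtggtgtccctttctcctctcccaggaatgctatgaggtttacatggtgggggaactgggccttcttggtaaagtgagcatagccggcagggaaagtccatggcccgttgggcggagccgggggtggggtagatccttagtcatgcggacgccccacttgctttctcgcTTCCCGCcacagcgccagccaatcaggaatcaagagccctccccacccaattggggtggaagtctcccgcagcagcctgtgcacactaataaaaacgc
Cdt1: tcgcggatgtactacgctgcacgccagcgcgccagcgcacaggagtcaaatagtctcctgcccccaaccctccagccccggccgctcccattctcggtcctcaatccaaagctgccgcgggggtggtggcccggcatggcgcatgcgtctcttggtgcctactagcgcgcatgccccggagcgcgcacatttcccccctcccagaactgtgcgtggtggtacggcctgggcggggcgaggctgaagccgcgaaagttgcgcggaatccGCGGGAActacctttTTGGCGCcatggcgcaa
Ccne1: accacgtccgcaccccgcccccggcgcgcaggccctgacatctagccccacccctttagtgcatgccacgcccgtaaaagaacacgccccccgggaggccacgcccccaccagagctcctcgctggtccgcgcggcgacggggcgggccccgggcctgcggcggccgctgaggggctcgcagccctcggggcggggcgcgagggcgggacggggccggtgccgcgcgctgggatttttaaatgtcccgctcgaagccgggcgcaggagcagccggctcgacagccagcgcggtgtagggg
E2f1: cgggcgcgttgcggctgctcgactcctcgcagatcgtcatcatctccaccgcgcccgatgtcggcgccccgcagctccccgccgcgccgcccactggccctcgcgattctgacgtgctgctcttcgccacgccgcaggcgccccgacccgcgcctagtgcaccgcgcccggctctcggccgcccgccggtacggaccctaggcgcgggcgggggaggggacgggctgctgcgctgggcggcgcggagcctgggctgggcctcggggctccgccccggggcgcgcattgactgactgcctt

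Values are RPKM, reads divided by gene length and by library depth, so levels can be compared between genes. For tests the values were scaled between libraries, a pseudocount of 0.1 RPKM was added, and the log2 values were fitted with limma. Log2 changes below are on this log2(scaled RPKM + 0.1) scale, which understates the change of low genes, and a change was called at a Benjamini-Hochberg adjusted p under 0.05 over the 12938 genes that reached 1 RPKM in 2 or more libraries. Of the 37 members, 30 passed this filter, and only 16 would have passed it without the bleomycin day 14 libraries. The other 14 of the 30 passed through the group in which they were high and had to differ, so the counts of calls describe the members and support no statement about them. These 14 were Mcm5, Mcm6, Cdt1, Cdc45, Gins1, Prim1, Rfc3, Tyms, Rrm2, Tk1, Chaf1a, Uhrf1, Ccne1 and Ccne2. Mcm10, Pole, Pola1, Prim2, Cdc6, Orc1 and Chaf1b did not pass, and their changes come from a fit without the filter.

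The depth, estimated from the steps between low values, was 67580000 to 99870000 reads in the sham, bleomycin day 14 and pneumonectomy libraries and 132600000 to 200300000 reads in the day 30 libraries. Summed over 7 fibroblast markers the level was 2707 to 4467 RPKM in every library. Of these 7, 1 was called higher and 4 lower at bleomycin day 14 than in sham, and 5 were lower than after pneumonectomy. The summed level of 12 endothelial markers was 36.6 to 38.7 RPKM in sham, 345 to 661 RPKM at bleomycin day 14, 25.02 to 29.9 RPKM at day 30 and 28.6 to 59.98 RPKM after pneumonectomy. For 12 macrophage markers it was 29.7 to 34.6 RPKM in sham, 141 to 493 RPKM at bleomycin day 14, 218 to 767 RPKM at day 30 and 27.3 to 46.9 RPKM after pneumonectomy. At bleomycin day 14, 11 of the 12 endothelial and 11 of the 12 macrophage markers were called higher than in sham. After pneumonectomy 10 of the 12 endothelial, 3 of 4 mesothelial and 4 of 5 mural markers were called higher than in sham, and 1 of the 5 epithelial markers tested. In the same comparison 1 endothelial and 2 macrophage markers were called lower, and 0 macrophage markers higher. The mesothelial sum was 1.51 to 2.41 RPKM in sham and 10.02 to 34.7 RPKM after pneumonectomy, and the mural sum 59.8 to 85.2 RPKM and 94.8 to 137.5 RPKM. The epithelial sum over 8 markers was 10.9 to 15.01 RPKM in sham, 4.25 to 18.7 RPKM at bleomycin day 14, 42.2 to 499 RPKM after pneumonectomy and 1240 RPKM in day 30 library 3, beside 7.03 to 15.03 RPKM in the other 4 of that group. In these 6 lists no marker was at 0 throughout a group. Xist, made from the inactive X of female cells, was 19.9 to 29.2 RPKM in the day 30 libraries, in which the Y-linked Ddx3y was at 0, whereas Xist was at most 0.0222 RPKM in the bleomycin day 14 and pneumonectomy libraries and in sham library 2. Sham library 1 held both, with 15.9 RPKM of Xist and 2.14 RPKM of Ddx3y. The sex of the mice and the time after bleomycin cannot be told apart. Without scaling, the median gene moved by 0.26 between bleomycin day 14 and sham, by -0.21 between pneumonectomy and sham and by 0.47 between bleomycin day 14 and pneumonectomy (log2). The share of higher calls then went from 50% to 71.6%, from 50.9% to 25.4% and from 50.4% to 77.4%, and for day 30 it went from 51.9% to 76.4% against sham, from 52.5% to 34.8% against day 14 and from 52.2% to 81.1% against pneumonectomy. With upper-quartile scaling the shares were 35.3% for pneumonectomy against sham and 66.2% for day 30 against pneumonectomy.

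**Figure D1:**
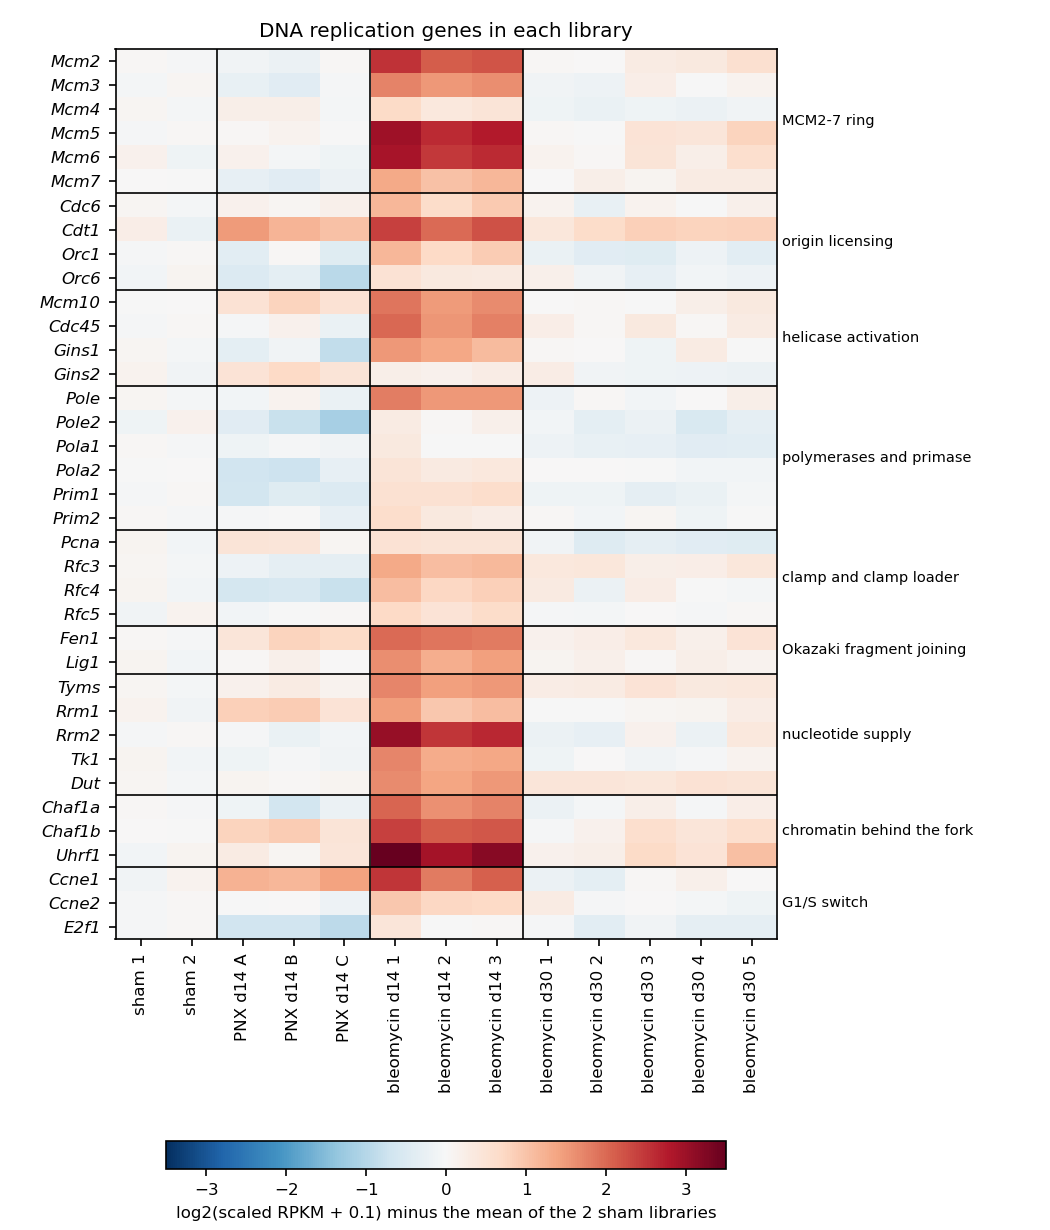
Each row is a member, ordered by role, and each column a library (PNX d14, day 14 after pneumonectomy), and the colour is log2(scaled RPKM + 0.1) minus the mean of the 2 sham libraries. The 3 bleomycin day 14 columns stand out in red for nearly every member, with Uhrf1 highest at a mean change of 3.21, while the day 30 and pneumonectomy columns are mostly pale.

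At day 14 after bleomycin, 26 of the 30 members tested were higher than in sham, none was lower, and Gins2, Pole2, Orc6 and E2f1 did not pass limma's test. At an unadjusted p under 0.05, 27 were higher and still none lower. Over all genes tested, 31.6% were called higher and 31.5% lower. Of the 16 members that the filter would have kept without these libraries, 12 were higher and none lower. The median log2 change of the 30 was 1.39, beside -0.003 for all genes tested. Members that passed the filter only through these libraries are part of that median, so it describes the members and supports no statement about them. In the fit without the filter the median over all 37 members was 1.39. In scaled RPKM, all 3 bleomycin day 14 libraries lay above all 10 others for 32 of the 37 members, beside 20.1% of the genes tested, the exceptions being Gins2, Pole2, Pola1, Pcna and E2f1. The 37 include members that did not pass the filter and members that passed only through these libraries, so these figures rest on unlike sets of genes. In bulk RNA, fewer cells of a type and less RNA per cell cannot be told apart. The higher endothelial and macrophage sums of the same libraries went with these changes, and their part in them was not tested.

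The 6 MCM2-7 genes encode the subunits of the helicase ring and were all higher at bleomycin day 14, where 31.6% of all genes tested were called higher. Without the bleomycin day 14 libraries, Mcm5 and Mcm6 would not have passed the filter. Mcm5 (ENSMUSG00000005410.6, chr8:75109569-75128439, plus strand) was 0.506 and 0.532 RPKM in sham, 5.47, 4.42 and 5.13 RPKM at bleomycin day 14, 0.584, 0.555, 0.815, 0.798 and 1.06 RPKM at day 30, and 0.461, 0.492 and 0.462 RPKM after pneumonectomy. All 3 bleomycin day 14 libraries stood far above the other 10. The log2 change against sham was 2.78 ± 0.20 (SE, adjusted p = 5.2e-07). Mcm6 rose by 2.65 ± 0.19, Mcm2 by 2.28 ± 0.17, Mcm3 by 1.62 ± 0.13 and Mcm7 by 1.17 ± 0.11 on the same log2 scale. Mcm4 (chr16:15623897-15637400, minus strand), the most abundant of the 6 in every library, was 3.85 and 3.46 RPKM in sham, 6.83, 5.73 and 6.25 RPKM at bleomycin day 14, 3.58, 3.30, 3.54, 3.41 and 3.73 RPKM at day 30, and 3.61, 3.58 and 3.10 RPKM after pneumonectomy. Its groups did not overlap between bleomycin day 14 and the rest either, but its change was the smallest of the ring, 0.49 ± 0.10 (adjusted p = 0.0013).

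The proteins assemble as a ring with 1 copy of each, and their mRNAs came closest to equal levels at bleomycin day 14. The RPKM of the highest ring gene over that of the lowest was 7.60 and 8.07 in sham, 1.43, 1.52 and 1.46 at bleomycin day 14, 6.23, 6.17, 4.72, 5.49 and 4.34 at day 30, and 7.83, 9.12 and 8.10 after pneumonectomy. No bleomycin day 14 library came near the ratio of any other library. In RPKM as deposited, without the scaling used for the tests, the gain over the sham mean lay between 2.62 RPKM for Mcm4 and 4.49 RPKM for Mcm5. It was 3.96 RPKM for Mcm2, 3.84 for Mcm3, 3.83 for Mcm6 and 2.85 for Mcm7. Over all members the gains on this scale ran from 0.241 to 6.36 RPKM. The 24 with a sham mean under 1 RPKM had a median ratio of 4.74 between bleomycin day 14 and sham (range 1.32 to 15.7), and the 13 at 1 RPKM or more a median ratio of 1.72 (range 1.35 to 3.91). Their median gains were 1.09 RPKM and 2.62 RPKM.

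**Figure D2:**
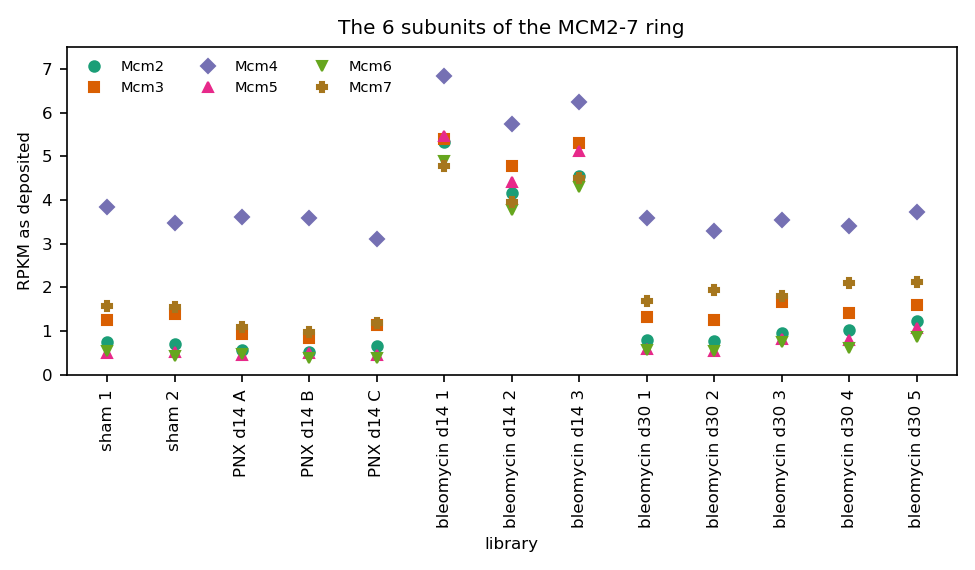
RPKM as deposited (y axis) of the 6 MCM2-7 genes in each library (x axis; PNX d14, day 14 after pneumonectomy), with 1 point per gene and library. Mcm4 stands alone near 3.5 RPKM in the sham, pneumonectomy and day 30 libraries, and the 6 genes draw together between 3.76 and 6.83 RPKM at bleomycin day 14.

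Of the licensing genes, Cdt1 was called in all 6 comparisons between groups. Cdt1 (ENSMUSG00000006585.3, chr8:122568015-122573554, plus strand), the loading factor that geminin holds back, was 0.467 and 0.318 RPKM in sham, 2.86, 2.21 and 2.70 RPKM at bleomycin day 14, 0.586, 0.708, 0.813, 0.799 and 0.829 RPKM at day 30, and 1.08, 0.855 and 0.782 RPKM after pneumonectomy. Sham was the lowest group and bleomycin day 14 the highest, without overlap, while the other groups overlapped each other. The log2 change against sham was 2.21 ± 0.19 at bleomycin day 14 (adjusted p = 1.8e-06), 1.23 ± 0.19 after pneumonectomy (adjusted p = 0.00048) and 0.69 ± 0.18 at day 30 (adjusted p = 0.014). The day 30 call did not hold when replicate numbers were fitted as a block (0.56, adjusted p = 0.18), and the change was 0.47 without sham library 2. Cdc6, which works with Cdt1, and Orc1, the largest subunit of the origin recognition complex, rose by 0.97 ± 0.17 and 0.96 ± 0.18 at bleomycin day 14 in the fit without the filter, from sham means of 0.231 and 0.161 RPKM. Orc6, the smallest subunit of that complex, was 2.47 and 2.82 RPKM in sham, 4.45, 4.07 and 4.14 RPKM at bleomycin day 14, 3.24, 2.58, 2.30, 2.70 and 2.59 RPKM at day 30, and 1.61, 1.77 and 1.19 RPKM after pneumonectomy. Its bleomycin day 14 values lay above all others and its pneumonectomy values below all others. The bleomycin change was 0.39 ± 0.17 (adjusted p = 0.06, not called) after scaling and 0.66 (adjusted p = 0.0028) without it. With scaling, it was called with a pseudocount of 1 and with a minimum mean of 1 RPKM (both adjusted p = 0.042). It was also called when only sham and bleomycin day 14 were fitted (adjusted p = 0.022) and when replicate numbers were fitted as a block (adjusted p = 0.038). The pneumonectomy change was -0.58 ± 0.17 (adjusted p = 0.016), and -0.49 without sham library 2. That call was lost when only the sham and pneumonectomy libraries were fitted (adjusted p = 0.082).

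Among the genes of helicase activation, Cdc45, a part of the active helicase, rose by 1.76 ± 0.17 at bleomycin day 14 (adjusted p = 3.7e-06), from a mean of 0.442 ± 0.0209 RPKM (SD, n = 2) to 2.10 ± 0.310 RPKM (n = 3). Mcm10, which helps to start the loaded helicase, was 0.0212 and 0.0235 RPKM in sham, 0.389, 0.289 and 0.342 RPKM at bleomycin day 14, 0.0255, 0.0273, 0.0235, 0.0435 and 0.0605 RPKM at day 30, and 0.0609, 0.0914 and 0.0642 RPKM after pneumonectomy. It was the lowest member in sham, and both day 14 groups lay above sham without overlap. In the fit without the filter Mcm10 rose by 1.71 ± 0.16 at bleomycin day 14 and by 0.58 ± 0.16 after pneumonectomy (adjusted p = 0.026).

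The GINS subunits Gins1 and Gins2 encode parts of the same 4-protein complex but did not run together in these data. Gins1 was 0.332 and 0.293 RPKM in sham, 1.26, 1.14 and 0.973 RPKM at bleomycin day 14, 0.348, 0.336, 0.292, 0.436 and 0.342 RPKM at day 30, and 0.194, 0.236 and 0.115 RPKM after pneumonectomy. The bleomycin day 14 libraries were again apart from all others, with a log2 change of 1.32 ± 0.23 against sham (adjusted p = 0.00038). Gins2 (ENSMUSG00000031821.11, chr8:120578633-120589304, minus strand) was 2.92 and 2.46 RPKM in sham, 3.60, 3.60 and 4.04 RPKM at bleomycin day 14, 3.52, 2.63, 2.57, 2.58 and 2.56 RPKM at day 30, and 3.21, 3.76 and 3.28 RPKM after pneumonectomy. Here both day 14 groups lay above sham as deposited and overlapped each other, while day 30 overlapped sham and pneumonectomy. The change at bleomycin day 14 was 0.20 ± 0.14 (adjusted p = 0.21, not called), or 0.47 (adjusted p = 0.0093) without scaling. After pneumonectomy the change was 0.54 ± 0.14 (adjusted p = 0.0087). That call was lost without scaling (0.34, adjusted p = 0.054), and the change was 0.42 without sham library 2. Gins2 was the sole member called lower at bleomycin day 14 than after pneumonectomy (-0.33 ± 0.12, adjusted p = 0.028), and without scaling that difference had the opposite sign (0.13, adjusted p = 0.34). The call was also lost with upper-quartile scaling (-0.21, adjusted p = 0.14), with no filter (-0.25, adjusted p = 0.14), without bleomycin day 14 library 1 (-0.33, adjusted p = 0.066) or 2 (-0.30, adjusted p = 0.089) and without pneumonectomy library B (-0.25, adjusted p = 0.11).

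In the GENCODE M21 annotation, 67.3% of the exon bases of Gins2 lie under exons of Gse1 on the other strand, and reads from the 2 genes cannot be told apart where the counting does not use strand. Gse1, looked up after the values of Gins2 were seen, was 3.20 and 2.80 RPKM in sham, 2.58, 2.90 and 3.08 RPKM at bleomycin day 14, 3.08, 2.65, 2.52, 2.61 and 2.43 RPKM at day 30, and 3.79, 3.91 and 3.40 RPKM after pneumonectomy. Like Gins2, Gse1 was higher after pneumonectomy than in sham (0.50 ± 0.11, adjusted p = 0.0041), but its change at bleomycin day 14 was -0.33 ± 0.11 (adjusted p = 0.02). Without sham library 2 the first of these calls was lost (adjusted p = 0.053), and the second was lost without scaling (-0.07, adjusted p = 0.59), with no filter (-0.26, adjusted p = 0.093), and without sham library 1 (-0.21, adjusted p = 0.22), bleomycin day 14 library 1 (-0.26, adjusted p = 0.086) or library 2 (-0.31, adjusted p = 0.054). How far the values of Gins2 hold reads of Gse1 was not tested.

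**Figure D3:**
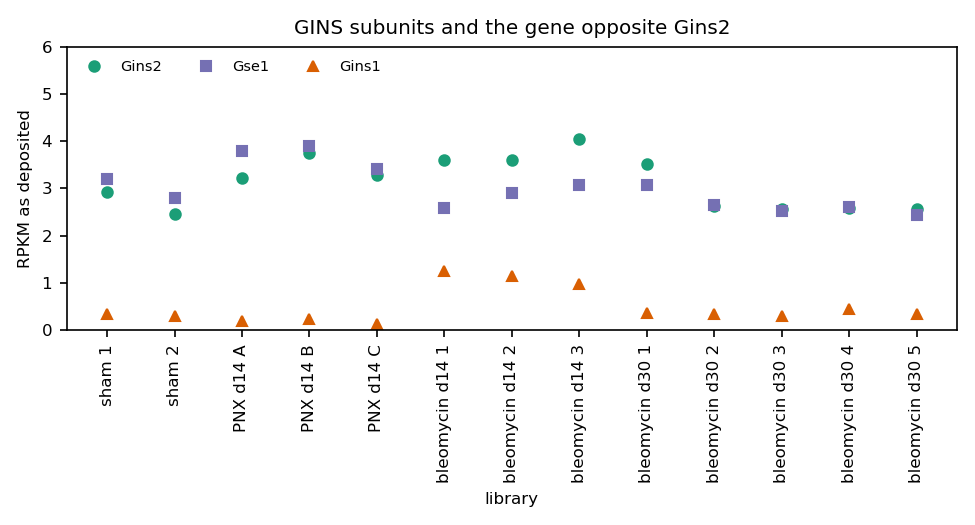
RPKM as deposited (y axis) of Gins1, Gins2 and the gene opposite Gins2, Gse1, in each library (x axis; PNX d14, day 14 after pneumonectomy), with 1 point per gene and library. Gins1 is at 0.973 to 1.26 RPKM at bleomycin day 14 and at most 0.436 RPKM elsewhere, while Gins2 and Gse1 lie close together in most other libraries and part at bleomycin day 14.

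Of the 6 polymerase and primase genes, 3 passed the filter. Pole, the catalytic subunit of the leading-strand polymerase, did not pass it and rose from a mean of 0.159 ± 0.0161 RPKM (SD, n = 2) in sham to 0.824 ± 0.0796 RPKM (n = 3) at bleomycin day 14, a log2 change of 1.67 ± 0.16 in the fit without the filter. Its partner Pole2 was 1.62 and 2.02 RPKM in sham, 2.59, 2.25 and 2.58 RPKM at bleomycin day 14, 1.82, 1.51, 1.68, 1.34 and 1.59 RPKM at day 30, and 1.15, 0.869 and 0.676 RPKM after pneumonectomy. Its lowest group was pneumonectomy and its highest bleomycin day 14, but after scaling the latter overlapped sham, with a change of 0.17 ± 0.19 (adjusted p = 0.47). After pneumonectomy Pole2 fell by 0.78 ± 0.19 on the log2 scale (adjusted p = 0.007), a call lost without sham library 2 (-0.63, adjusted p = 0.076). Exons of another gene model on the same strand share 8.50% of the exon bases of Pole2, and the authors' counting could split these reads.

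The subunits of polymerase alpha and primase had small changes. At bleomycin day 14 Prim1, the catalytic primase subunit, rose by 0.56 ± 0.12, Pola2 by 0.37 ± 0.12 (adjusted p = 0.015) and, in the fit without the filter, Prim2 by 0.48 ± 0.13, whereas Pola1, the catalytic subunit of polymerase alpha, had a change of 0.18 ± 0.12 (adjusted p = 0.3). The call of Pola2 was lost without sham library 1 (adjusted p = 0.056) and without sham library 2 (adjusted p = 0.0504). After pneumonectomy Prim1 was 0.332, 0.398 and 0.394 RPKM, beside 0.643 and 0.676 RPKM in sham, and Pola2 was 0.712, 0.679 and 0.996 RPKM, beside 1.37 and 1.41 RPKM. Neither gene's groups overlapped, and the falls were 0.52 for Prim1 (log2 -0.52 ± 0.12, adjusted p = 0.0063) and 0.57 for Pola2 (log2 -0.57 ± 0.12, adjusted p = 0.0026). The 3 polymerase and primase genes tested in this comparison, Pole2, Pola2 and Prim1, were thus called lower, beside 20.8% of all genes tested. Prim1 would not have passed the filter without the bleomycin day 14 libraries. In the fit without the filter, 3 of the 6 genes of this class were lower. For Pole2, Pola2 and Prim1, no call held when only the sham and pneumonectomy libraries were fitted (adjusted p = 0.065, 0.055 and 0.06).

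Pcna, the sliding clamp, had the highest mean RPKM of the 37 members in each of the 4 groups. Its values (ENSMUSG00000027342.14, chr2:132249162-132253314, minus strand) were 8.71 and 7.59 RPKM in sham, 13.6, 13.4 and 13.8 RPKM at bleomycin day 14, 8.08, 6.39, 6.92, 6.73 and 6.75 RPKM at day 30, and 9.54, 9.41 and 7.60 RPKM after pneumonectomy. The bleomycin day 14 libraries were the highest as deposited, and the other groups overlapped. Against sham the change was 0.47 ± 0.12 (adjusted p = 0.0056), or 0.37 (adjusted p = 0.064) without sham library 2. Against pneumonectomy it was 0.15 ± 0.11 (adjusted p = 0.24), the sole member tested that did not pass in that comparison. Pcna did pass there without scaling (0.62) and with upper-quartile scaling (0.27, adjusted p = 0.041). The pseudogene Pcna-ps2 was 1.04 to 2.28 RPKM and highest in the same libraries, and reads shared between the 2 copies make both values uncertain.

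The loader genes Rfc3, Rfc4 and Rfc5, which encode small subunits of the clamp loader, rose at bleomycin day 14 by 1.18 ± 0.14, 0.88 ± 0.17 and 0.61 ± 0.09. Rfc4 was 0.907 and 0.770 RPKM in sham, 2.19, 1.77 and 1.93 RPKM at bleomycin day 14, 1.14, 0.762, 1.09, 0.904 and 0.876 RPKM at day 30, and 0.436, 0.458 and 0.397 RPKM after pneumonectomy. Pneumonectomy was below every other library, bleomycin day 14 above, and sham lay within the range of day 30. The change after pneumonectomy was -0.66 ± 0.17 (adjusted p = 0.009), or -0.53 (adjusted p = 0.079) without sham library 1. Exons of Eif4a2 on the other strand cover 12.7% of the exon bases of Rfc4, and those of Wsb2 10.7% of Rfc5.

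Both genes of Okazaki fragment joining rose at bleomycin day 14, and Fen1 also after pneumonectomy. Over all genes tested, 31.6% and 21.5% were called higher in these comparisons with sham. Fen1 (chr19:10199132-10204169, minus strand), the nuclease that cuts the flap before ligation, was 0.728 and 0.689 RPKM in sham, 3.62, 3.46 and 3.40 RPKM at bleomycin day 14, 0.857, 0.912, 1.01, 0.877 and 1.13 RPKM at day 30, and 0.845, 1.09 and 1.06 RPKM after pneumonectomy. Sham was lowest, bleomycin day 14 was apart from the rest, and day 30 overlapped pneumonectomy. The log2 change was 1.90 ± 0.12 at bleomycin day 14 (adjusted p = 2.7e-07) and 0.63 ± 0.12 after pneumonectomy (adjusted p = 0.0022). Lig1, the ligase, rose by 1.45 ± 0.11 at bleomycin day 14, from 1.07 ± 0.102 RPKM (SD, n = 2) to 3.74 ± 0.388 RPKM (n = 3), and was 0.982 ± 0.0459 RPKM (n = 3) after pneumonectomy. The antisense gene Gm10143 covers 78.8% of the exon bases of Fen1, and its own mean went from 0.480 RPKM in sham to 2.29 RPKM at bleomycin day 14, so that the 2 genes cannot be told apart without strand.

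All 5 genes of nucleotide supply rose at bleomycin day 14: Rrm2 by 2.73 ± 0.20, Tyms by 1.55 ± 0.14, Dut by 1.52 ± 0.08, Tk1 by 1.45 ± 0.14 and Rrm1 by 1.16 ± 0.16. Over all genes tested, 31.6% were called higher. Rrm2, Tyms and Tk1 would not have passed the filter without the bleomycin day 14 libraries. Rrm2 (ENSMUSG00000020649.11, chr12:24708241-24714146, plus strand), the ribonucleotide reductase subunit made in S phase, was 0.785 and 0.828 RPKM in sham, 8.55, 6.06 and 6.90 RPKM at bleomycin day 14, 0.738, 0.694, 0.977, 0.739 and 1.19 RPKM at day 30, and 0.676, 0.570 and 0.665 RPKM after pneumonectomy. Only the bleomycin day 14 libraries were above 1.19 RPKM. Its partner Rrm1, the large subunit, was 3.36 and 2.81 RPKM in sham, 9.99, 7.24 and 8.27 RPKM at bleomycin day 14, 3.32, 3.28, 3.43, 3.60 and 4.12 RPKM at day 30, and 4.76, 4.94 and 3.83 RPKM after pneumonectomy. Every pneumonectomy library was above both sham libraries, a change of 0.73 ± 0.16 (adjusted p = 0.0038). The ratio of Rrm2 to Rrm1 in RPKM was 0.234 and 0.294 in sham, 0.855, 0.837 and 0.834 at bleomycin day 14, 0.205 to 0.288 at day 30, and 0.142, 0.115 and 0.174 after pneumonectomy. So the small subunit came nearest the large one at bleomycin day 14, and the pneumonectomy ratios were the lowest of the 13 libraries. Dut, the enzyme that clears dUTP, was 1.31 and 1.21 RPKM in sham and 1.85, 1.85, 1.79, 2.00 and 1.93 RPKM at day 30. These groups did not overlap (0.44 ± 0.08, adjusted p = 0.0021). The call was lost when replicate numbers were fitted as a block (0.39, adjusted p = 0.091).

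The genes that act on chromatin behind the fork were all higher at bleomycin day 14 than in sham, and none of the 3 would have passed the filter without those libraries. Over all genes tested, 31.6% were called higher. Uhrf1 (ENSMUSG00000001228.14, chr17:56303321-56323486, plus strand), the reader of half-methylated DNA that recruits the maintenance methyltransferase, was 0.202 and 0.242 RPKM in sham, 4.14, 2.79 and 3.48 RPKM at bleomycin day 14, 0.275, 0.285, 0.436, 0.375 and 0.623 RPKM at day 30, and 0.251, 0.199 and 0.293 RPKM after pneumonectomy. The bleomycin day 14 libraries were far above the rest, sham and pneumonectomy overlapped, and all day 30 values were above sham. The log2 change was 3.21 ± 0.27 at bleomycin day 14 (adjusted p = 1.4e-06), the largest of the 37, and the ratio of mean RPKM was 15.7. Chaf1b, the middle subunit of CAF-1, was 0.0888 and 0.0862 RPKM in sham, 1.01, 0.860 and 0.906 RPKM at bleomycin day 14, 0.0875, 0.116, 0.191, 0.163 and 0.201 RPKM at day 30, and 0.187, 0.210 and 0.136 RPKM after pneumonectomy. It lay above sham in every library of both day 14 groups, with changes of 2.29 ± 0.21 after bleomycin and 0.69 ± 0.21 after pneumonectomy (adjusted p = 0.039) in the fit without the filter. Chaf1a, the large subunit, rose by 1.79 ± 0.19 at bleomycin day 14, and exons of Ubxn6 on the other strand cover 52.5% of its exon bases.

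The G1/S switch genes went different ways. Ccne1 (ENSMUSG00000002068.16, chr7:38097984-38107534, minus strand), a cyclin that activates CDK2, was 0.211 and 0.272 RPKM in sham, 2.10, 1.31 and 1.67 RPKM at bleomycin day 14, 0.213, 0.184, 0.267, 0.311 and 0.271 RPKM at day 30, and 0.583, 0.563 and 0.709 RPKM after pneumonectomy. Day 30 overlapped sham, pneumonectomy lay above both, and bleomycin day 14 above all. The change was 2.13 ± 0.22 at bleomycin day 14 (adjusted p = 6.7e-06) and 1.26 ± 0.22 after pneumonectomy (adjusted p = 0.00098). Ccne2, the second E cyclin, rose by 0.80 ± 0.14 at bleomycin day 14, and exons of Ints8 on the other strand cover 17.4% of its exon bases. In RPKM, Ccne1 over Ccne2 was 0.326 and 0.397 in sham, 1.30, 0.928 and 1.17 at bleomycin day 14, 0.233 to 0.452 at day 30, and 1.02, 0.982 and 1.38 after pneumonectomy, so that the 2 cyclins were near equal levels in both day 14 groups.

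E2f1 (ENSMUSG00000027490.17, chr2:154559407-154569892, minus strand), the transcription factor that drives many of these genes, was 2.04 and 2.14 RPKM in sham, 3.29, 2.50 and 2.69 RPKM at bleomycin day 14, 2.20, 1.73, 2.04, 1.80 and 1.84 RPKM at day 30, and 1.10, 1.10 and 0.957 RPKM after pneumonectomy. As deposited, bleomycin day 14 was above and pneumonectomy below all other libraries. After scaling bleomycin day 14 overlapped sham, with a change of 0.15 ± 0.14 (adjusted p = 0.38), or 0.41 (adjusted p = 0.013) without scaling. After pneumonectomy E2f1 fell by 0.74 ± 0.14 on the log2 scale (adjusted p = 0.0015).

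**Figure D4:**
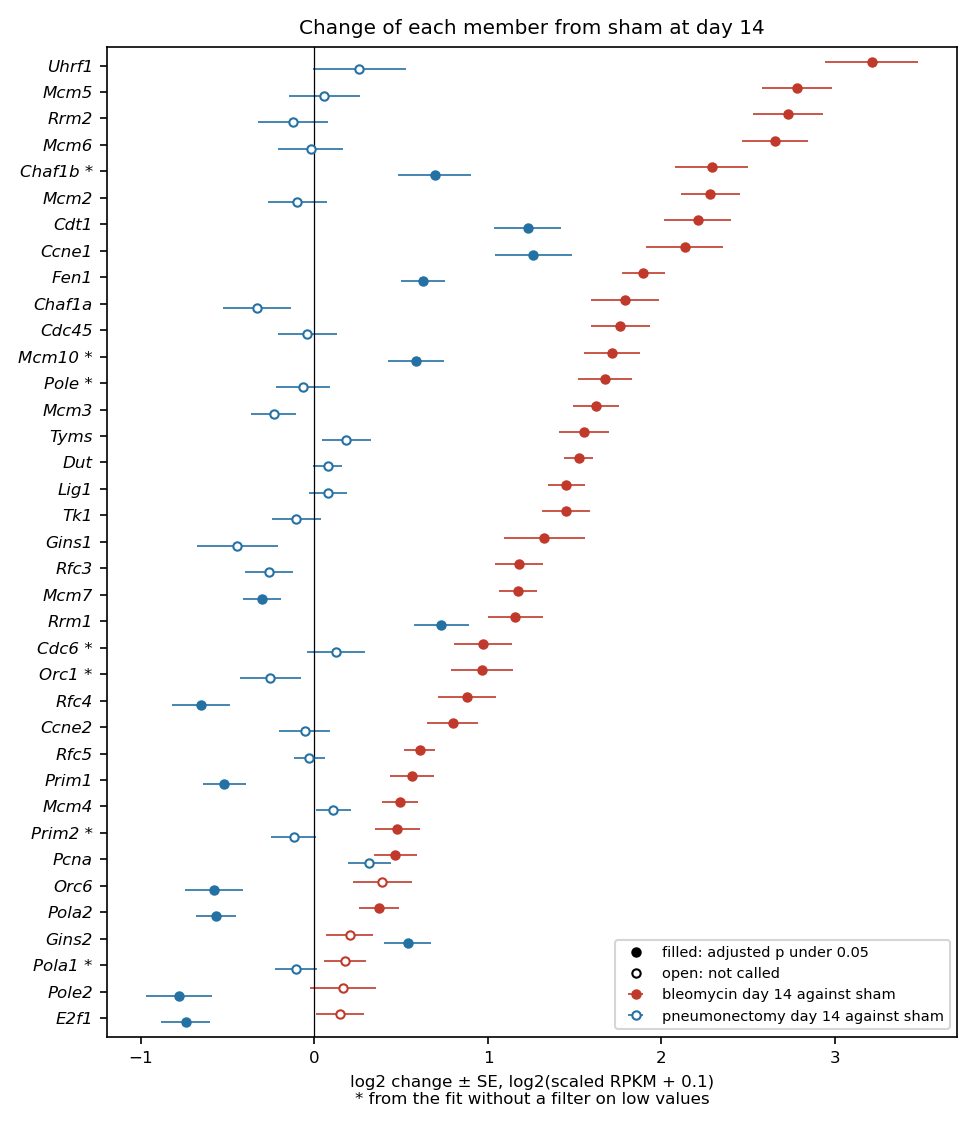
Log2 change ± SE on the log2(scaled RPKM + 0.1) scale (x axis) of each of the 37 members (y axis, ordered by the bleomycin change) for bleomycin day 14 against sham in red and pneumonectomy day 14 against sham in blue, with filled points called at an adjusted p under 0.05. The red points run from 0.15 for E2f1 to 3.21 for Uhrf1, and the blue ones fall on both sides of 0, from -0.78 for Pole2 to 1.26 for Ccne1.

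After pneumonectomy, of the 30 members tested, 5 were higher than in sham (Ccne1, Cdt1, Rrm1, Fen1 and Gins2), 7 were lower (Pole2, E2f1, Rfc4, Orc6, Pola2, Prim1 and Mcm7) and 18 did not pass. Over all genes tested, 21.5% were called higher and 20.8% lower, so that the shares of members called were near those of all genes. The median log2 change was -0.05 for the members and -0.01 for all genes. Of the 16 members that the filter would have kept without the bleomycin day 14 libraries, 3 were higher and 6 lower. The number called lower was 11 without scaling, 2 when only these 2 groups were fitted and 4 without sham library 2, whereas the number called higher was 4 to 6 when single libraries were left out. The fall of Mcm7, -0.30 ± 0.11 (adjusted p = 0.044), was lost without either sham library, without pneumonectomy library A or B, with a pseudocount of 1 (-0.19, adjusted p = 0.074), with no filter (adjusted p = 0.069), with a minimum mean of 1 RPKM (adjusted p = 0.052) and when only these 2 groups were fitted (adjusted p = 0.083). Most mesothelial, mural and endothelial markers were called higher in the pneumonectomy group. The endothelial sum of pneumonectomy library B, 28.6 RPKM, was nevertheless below both sham libraries (38.7 and 36.6 RPKM). The part of these cells in the members' changes was not tested. The bleomycin and pneumonectomy comparisons share the sham libraries, so their values stand side by side and are not independent.

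Set against each other, the day 14 groups differed for nearly all members tested. At bleomycin day 14, 28 of 30 were higher than after pneumonectomy, 1 was lower (Gins2) and 1 did not pass (Pcna), with 35.7% of all genes tested called higher and 35.1% lower. Uhrf1 differed by 2.95, Rrm2 by 2.85 and Mcm5 by 2.72 on the log2 scale. The 3 members called highest against sham after pneumonectomy were still higher after bleomycin, with differences of 0.87 ± 0.20 for Ccne1, 0.98 ± 0.17 for Cdt1 and 0.43 ± 0.14 for Rrm1 (adjusted p = 0.018). The last call was lost when only these 2 groups were fitted (adjusted p = 0.06), without bleomycin day 14 library 1 (0.29, adjusted p = 0.075) and without pneumonectomy library C (0.30, adjusted p = 0.08). E2f1 differed by 0.89 ± 0.12 and Pole2 by 0.95 ± 0.17, both of which were lower after pneumonectomy than in sham.

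**Figure D5:**
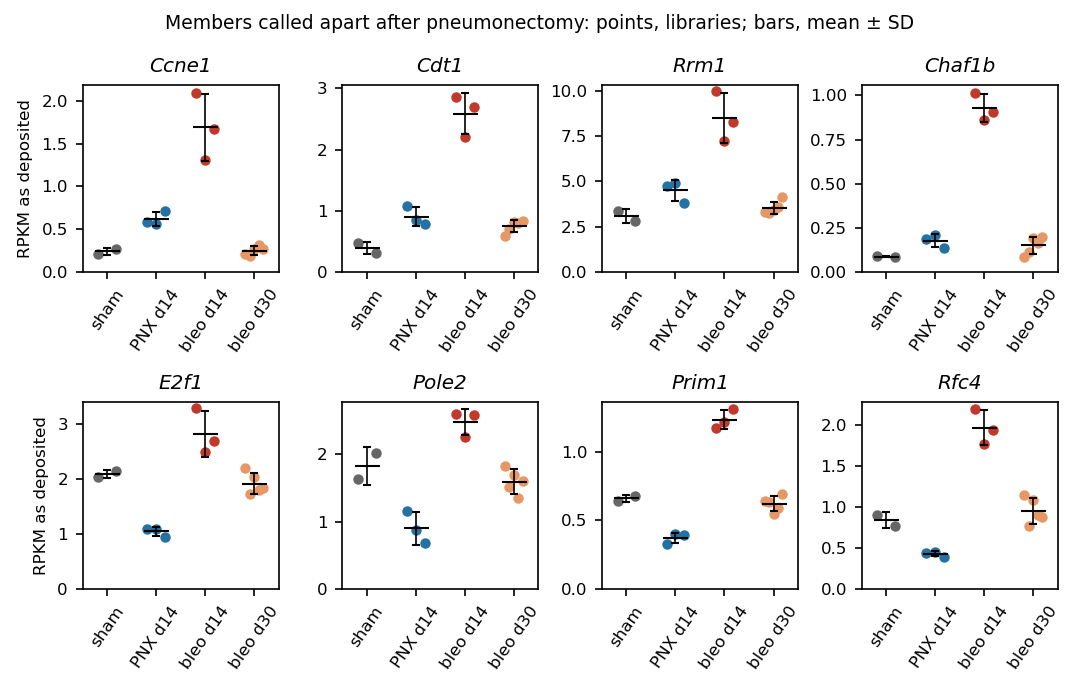
RPKM as deposited (y axis, each from 0) of 8 members called different from sham after pneumonectomy (PNX d14), with groups on the x axis (bleo, bleomycin), points for libraries and bars for mean ± SD. In the upper row Ccne1, Cdt1, Rrm1 and Chaf1b are higher after pneumonectomy than in sham, and in the lower row E2f1, Pole2, Prim1 and Rfc4 are lower, with E2f1 at 1.05 ± 0.0825 RPKM beside 2.09 ± 0.0708 RPKM.

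At day 30 after bleomycin, 30 of 30 members tested were lower than at day 14 and none was higher by limma's test, nor at an unadjusted p under 0.05, with 28.3% of all genes called lower and 31.2% higher. The median log2 change of the members was -1.15 and that of all genes 0.02. Members that passed the filter only through the day 14 libraries are part of the first median. Rrm2 changed by -2.76 ± 0.16, Uhrf1 by -2.71 ± 0.22 and Ccne1 by -2.19 ± 0.18. The smallest changes were those of Gins2 (-0.28 ± 0.11, adjusted p = 0.045) and E2f1 (-0.38 ± 0.11, adjusted p = 0.012), and the call of Gins2 was lost without bleomycin day 14 library 1 (-0.31, adjusted p = 0.07) or 3 (-0.27, adjusted p = 0.103) and without any of day 30 libraries 2 to 5. The fall was just as general among the 16 members that the filter would have kept without the day 14 libraries, of which 16 were lower.

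Against sham, 2 of the 30 members were higher at day 30 (Cdt1 and Dut), 1 was lower (Pcna, -0.34 ± 0.11, adjusted p = 0.042) and 27 did not pass, with 14.9% of all genes called higher and 13.9% lower. The call of Pcna was lost without scaling (-0.22, adjusted p = 0.12), with no filter (adjusted p = 0.093), without sham library 1 (-0.24, adjusted p = 0.27), without sham library 2 (-0.44, adjusted p = 0.071) and without any of day 30 libraries 2 to 5. In RPKM as deposited, the part of the day 14 gain over sham that was left at day 30 had a median of 5.45% over the 37 members. It ran from -46.5% for Pola1 to 19.95% for Rfc3, with 18.8% for Dut, 16.1% for Cdt1, 14.2% for Tyms and 12.8% for Mcm7. Every member had thus less than 20% of its gain left on this unscaled measure. For Gins2, Pole2, Orc6, E2f1 and Pola1 the day 14 gain itself was not called after scaling, and that of Pola1 was only 0.241 RPKM. A change that did not pass the test does not show that day 30 and sham were equal, and the day 30 libraries differ from the other groups in sex markers as well.

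Beside the pneumonectomy group, 11 of the 30 members were higher at day 30 and 7 lower, where 30.2% of all genes were called higher and 27.6% lower. The higher ones included Rfc4 (0.71 ± 0.14, adjusted p = 0.00085) and E2f1 (0.51 ± 0.11, adjusted p = 0.0021). Among the lower ones were Ccne1 (-1.32 ± 0.18), Rrm1 (-0.65 ± 0.13) and Pcna (-0.65 ± 0.10). Without scaling 21 were higher and 4 lower.

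Within the bleomycin day 14 group, the 3 libraries kept nearly the same order for most members. After scaling, library 1 was the highest of the 3 for 35 of 37 members, as it was for 41.0% of the genes tested, and library 2 was the lowest for 32 of 37, as for 34.1% of the genes tested. Library 1 had the lowest summed endothelial markers of the 3 (345 RPKM, beside 661 and 613 RPKM) and the lowest summed macrophage markers (141 RPKM, beside 493 and 379 RPKM). At day 30 the macrophage sums were 218 to 767 RPKM and the endothelial sums 25.02 to 29.9 RPKM. The part of these cells in the members' values was not tested. At day 30, library 5 was the highest of 5 for 17 of 37 members, as for 16.4% of the genes tested, among them Mcm2, Mcm5, Mcm6, Rrm2 and Uhrf1. The coefficient of variation of a member within the day 30 group had a median of 12.4%, and within the bleomycin day 14 group one of 10.7%.

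Of 50 replication genes outside the members, 37 were tested. At bleomycin day 14, 19 of these were higher and 5 lower than in sham, beside 31.6% and 31.5% of all genes tested, with a median change of 0.26. The number called lower was 2 without sham library 2 or bleomycin day 14 library 3, and 3 without sham library 1 or bleomycin day 14 library 2. The called genes with the smallest p included Top2a, the topoisomerase that untangles copied DNA (4.10 ± 0.26), and Dbf4, the activator of the kinase CDC7 (2.35 ± 0.17). Clspn and Timeless, which guard the fork, were also among them (2.88 ± 0.25 and 2.56 ± 0.20). None of these would have passed the filter without the bleomycin day 14 libraries. Of the 31 genes that would have passed, 13 were higher and 5 lower. Among the lower ones were Rrm2b, the reductase subunit of resting and damaged cells (-0.96 ± 0.08), and Pole4 (-0.50 ± 0.14), whose call was lost without scaling (-0.24, adjusted p = 0.13) and without sham library 1 (-0.45, adjusted p = 0.058). Rrm2b was 2.18 and 2.25 RPKM in sham, 1.18, 1.42 and 1.36 RPKM at bleomycin day 14, 1.75, 1.82, 1.66, 1.79 and 1.91 RPKM at day 30, and 1.42, 1.59 and 1.60 RPKM after pneumonectomy. It was thus lowest where its paralog Rrm2 was highest. After pneumonectomy 4 of the 37 were higher and 13 lower, beside 21.5% and 20.8% of all genes tested. The counts were 2 higher without sham library 1 and 8 lower without sham library 2. Called genes included Top1, which relaxes DNA ahead of the fork, at 1.01 ± 0.09, Nasp, a histone chaperone, at 0.58 ± 0.12, Asf1a, another histone chaperone, at -0.64 ± 0.10, and Dtymk, the kinase that makes dTDP, at -0.51 ± 0.07.

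Of 35 regulators of the G1/S passage, 29 were tested. At bleomycin day 14, 19 were higher and 4 lower than in sham, beside 31.6% and 31.5% of all genes tested. Of the 26 that the filter would have kept without the bleomycin day 14 libraries, 16 were higher and 4 lower. Ccnd1, the cyclin of early G1, was 1.06 and 1.20 RPKM in sham, 27.6, 28.1 and 29.6 RPKM at bleomycin day 14, 2.66, 3.67, 5.11, 5.20 and 5.52 RPKM at day 30, and 1.82, 1.01 and 1.71 RPKM after pneumonectomy. Bleomycin day 14 was far above the rest, day 30 was above sham, and pneumonectomy overlapped sham. The log2 change at bleomycin day 14 was 4.28 ± 0.29 for Ccnd1 and 3.49 ± 0.18 for Ccna2, the cyclin of S phase. Ccna2 would not have passed the filter without the bleomycin day 14 libraries. For Cdkn2c, an inhibitor of CDK4 and CDK6, the change was 2.61 ± 0.17. The lower genes were Cdkn1c, a CDK inhibitor (-2.59 ± 0.31), Myc (-1.58 ± 0.29), the pocket protein gene Rbl2 (-1.24 ± 0.06) and Cdkn1b, another CDK inhibitor (-0.46 ± 0.09), whose call was lost without scaling (-0.19, adjusted p = 0.092). The CDK inhibitor genes did not move together, since Cdkn1a rose by 1.58 ± 0.13 and Cdkn2a by 3.82 ± 0.41.

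After pneumonectomy 7 of the 29 regulators were higher and none lower by limma's test, beside 21.5% and 20.8% of all genes tested. At an unadjusted p under 0.05, 3 were lower, and 11 were called lower without scaling and 8 with upper-quartile scaling, 1 without sham library 1 and 2 without pneumonectomy library C. Cdkn1a (1.46 ± 0.13), Myc (1.41 ± 0.29), Cdkn2c (1.22 ± 0.17) and E2f3 (1.21 ± 0.12) were among the higher ones. Myc was 20.7 and 13.3 RPKM in sham, 7.18, 6.27 and 6.45 RPKM at bleomycin day 14, 12.3, 7.22, 8.40, 5.42 and 8.26 RPKM at day 30, and 43.7, 39.5 and 32.4 RPKM after pneumonectomy. So all Myc values after bleomycin were below sham and all after pneumonectomy above it. Among markers of cycling cells, Mki67 was 0.0970 and 0.153 RPKM in sham, 6.20, 5.12 and 5.02 RPKM at bleomycin day 14, 0.210, 0.316, 0.422, 0.573 and 0.622 RPKM at day 30, and 0.344, 0.406 and 0.344 RPKM after pneumonectomy. Its groups did not overlap with sham in any comparison, and its change was 4.39 ± 0.30 at bleomycin day 14 and 1.23 ± 0.30 after pneumonectomy (adjusted p = 0.0074), the latter lost without sham library 1 (1.06, adjusted p = 0.055). The mitotic genes Cdk1 and Ccnb1 rose by 4.21 ± 0.28 and 3.92 ± 0.28 at bleomycin day 14, beside 3.21 for Uhrf1, the member with the largest change. Mki67, Cdk1 and Ccnb1 would not have passed the filter without the bleomycin day 14 libraries.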

How the data were processed

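RNA was sequenced from 13 libraries of mouse lung fibroblasts. Per the labels' protocols, libraries were made from 200 ng of total RNA with TruSeq version 2 kits, and for the sham and bleomycin libraries poly(A) selection, an RNA quality number of at least 6 and 12 PCR cycles are stated. The deposited table holds RPKM values that the authors computed per gene, on mm10 (GRCm38) per the submitters' processing notes. The aligner, the counter, the annotation and the use of strand are not given in the sources used here, and read counts were not used here. Genes were matched by symbol, and every value column was assigned to a sample or, for pneumonectomy, to the group, whose unnumbered columns are named A, B and C.

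RPKM were divided by library factors from trimmed means of log ratios to a reference library (30% of ratios and 5% of levels trimmed). The log2(scaled RPKM + 0.1) values of the 12938 genes that reached 1 RPKM in 2 or more libraries were fitted with limma 3.58.1 in R 4.3.3, with group means over all 13 libraries, a trended and robust spread, and Benjamini-Hochberg adjustment at 0.05. The procedure was tested on simulated data. Depth was estimated from the steps between low values, since RPKM of whole reads are multiples of the value of 1 read. For 82.0% to 85.8% of the low values checked, the estimate gave a count within 0.05 of a whole read. Gene positions, exon overlaps and lengths come from GENCODE M21, and promoter windows from RefSeq on GRCm38.p6.

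All 37 members could be named, as could a fixed panel and, of each other list, up to 4 called genes per direction with the smallest p. The members and lists were chosen with earlier results of these data known. Alternatives covered the pseudocount, the filter, the scaling, the groups fitted, a replicate block and each library left out.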

Additional observations from a re-analysis of the deposited data

Results flagged for a closer look

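The Gins2 value of bleomycin day 30 library 1, 3.52 RPKM, stood apart from the other 4 libraries of its group, with a gap to the nearest of 0.838 of the whole range on Dixon's test. The test was run on scaled RPKM for each of the 37 members in the day 30 group and flagged this value alone. Such a test flags about 1 group in 20 by chance, so a flag among 37 members can arise by chance. Gse1, the gene opposite Gins2, was highest of its group in the same library, at 3.08 RPKM. The change from sham differed between day 14 and day 30 after bleomycin for 30 of the 30 members tested, by limma's test of day 30 against day 14. Only 16 of these members would have passed the filter without the day 14 libraries, so the count describes the members only. Over all genes tested, 28.3% were called lower and 31.2% higher at day 30 than at day 14. The libraries of these times also differ in Xist and Ddx3y, so time and sex cannot be told apart.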

How the results depend on the processing

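With only 2 sham libraries, precision was limited by their number. When 1 sham library was left out, the other was assumed to vary like the other groups. Depth did not enter the tests, since RPKM carry no counts. Over the alternatives run, the members called higher (26) and lower (0) at bleomycin day 14 against sham, higher after pneumonectomy against sham (5), higher at bleomycin day 14 against pneumonectomy (28) and higher (0) and lower (30) at day 30 against day 14 stayed within 1.5 times these counts. Of 111 changes of single genes, 82 kept their direction and their side of the threshold under every alternative run. Of 1322 alternative values, 1 changed direction, 86 were no longer called and 9 were newly called. The change in direction was that of Gins2 between bleomycin day 14 and pneumonectomy, 0.13 without scaling. The cause of these shifts was not tested.

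Without scaling, members called lower after pneumonectomy went from 7 to 11, members called higher at day 30 against sham from 2 to 5 and lower from 1 to 0, lower at bleomycin day 14 against pneumonectomy from 1 to 0, and higher and lower at day 30 against pneumonectomy from 11 and 7 to 21 and 4. Of the other replication genes, 1 in place of 5 was then lower at bleomycin day 14, and 2 in place of 4 were higher and 24 in place of 13 lower after pneumonectomy. Of the G1/S regulators, 11 in place of 0 were lower after pneumonectomy. Upper-quartile scaling gave 0 members lower at bleomycin day 14 against pneumonectomy, and after pneumonectomy 21 other replication genes and 8 G1/S regulators lower. With no filter, 0 members were lower at day 30 against sham, 0 lower at bleomycin day 14 against pneumonectomy, and 29 other replication genes were higher and 2 lower at bleomycin day 14. A minimum mean of 1 RPKM gave 7 members higher at day 30 against pneumonectomy and 3 other replication genes lower at bleomycin day 14. A pseudocount of 1 gave 2 other replication genes higher after pneumonectomy. Fitting only the groups compared gave 2 members lower after pneumonectomy, with 2 other replication genes higher and 7 lower, and 3 of these genes lower at bleomycin day 14.

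Leaving out single libraries gave 4 to 7 members lower after pneumonectomy, 1 to 2 higher and 0 to 1 lower at day 30 against sham, 0 to 1 lower at bleomycin day 14 against pneumonectomy, and 8 to 11 higher and 5 to 7 lower at day 30 against pneumonectomy. Other replication genes lower at bleomycin day 14 were 2 to 4, and after pneumonectomy 2 to 4 were higher and 8 to 13 lower. G1/S regulators lower after pneumonectomy were 0 to 2.

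The replicate block, fitted over the sham and bleomycin libraries, gave 0 members higher and 0 lower at day 30 against sham, 2 other replication genes lower and 27 members higher at bleomycin day 14, and 27 members lower at day 30 against day 14. Same-numbered libraries correlated in their deviations by -0.127 to 0.136, so they share only a number, and the block was not possible for the unnumbered pneumonectomy columns.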
